A study of Rattus norvegicus with 8 samples.

Results

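Transcript levels of 52 genes of DNA replication and mitosis were examined in rat kidney grafts. The genes were chosen by name, as cyclins and cyclin-dependent kinases (CDKs), origin licensing factors, replication enzymes and mitotic regulators. All 52 were found among the 41012 probes by gene symbol, older synonym or RefSeq accession, through 75 probes. All 52 passed the filter on dim probes, out of 24462 genes tested, and 50 were well above background on all 8 arrays. The exceptions were Cenpe, which was not well above background on 1 high-difference and 1 low-difference array, and Nusap1, which was not so on 1 high-difference array.

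A dividing cell first licenses its replication origins by loading the MCM helicase onto DNA with Cdc6 and Cdt1, then copies its genome with polymerases, the sliding clamp and enzymes that make nucleotides. Cyclins bind CDKs in succession and drive these steps, and E2F factors switch on replication genes ahead of S phase, whereas FOXM1 and its partner complexes switch on mitotic genes later. Tubular epithelium of the adult kidney divides rarely and re-enters the cell cycle after ischaemic injury, and infiltrating leukocytes can also divide.

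Kidneys of Dark Agouti (DA; RT1a) donors were placed into male Lewis (LEW; RT1l) recipients that had lost both of their own kidneys, after 25 min of storage at 4 °C in UW solution. Animals were inbred rats of 120 to 250 g, and ages are not given in the sources used here. Tissue was taken 24 h after transplantation in every group. High-difference grafts came from donors 20 to 50% lighter than the recipient. Donors of low-difference grafts were 0 to 20% lighter. The anti-IL6R group held high-difference grafts whose recipients received a single intravenous injection of 500 µg of a neutralizing antibody to the interleukin-6 receptor directly after surgery. The prednisolone group held high-difference grafts with a single intravenous dose of 15 mg/kg of this glucocorticoid at the same point. The labels name no injection for the untreated groups. Mismatched strains, loss of the native kidneys, cold storage and surgery were common to all groups, and unoperated kidneys were not analysed here. Each group had 2 biological replicates with 1 array each, called high 1, high 2, low 1, low 2 and so on after group and replicate number.

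Both untreated groups lay on slide 1 and both treated groups on slide 2, so that treatment and slide cannot be told apart. The share of probes well above background ran from 64.5% to 74.0% over the arrays, and with so few arrays every value has limited precision. The kidney markers Umod, Slc34a1 and Aqp2 were well above background on all 8 arrays. A level below is the log2 of a probe's processed signal relative to the 75th percentile of its array. Levels of different genes were not set against each other. The marker sums further below add signals of different genes, so bright probes weigh most in them. The tissue was measured in bulk, so fewer dividing cells and less RNA per cell cannot be told apart.

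Replicate grafts of the untreated groups lay far apart for these genes. Low 1 was the lowest of the 8 arrays for 46 of 52 members, against 13.6% of all genes tested. High 2 was lowest for 5 members, against 15.8% of all genes, and these were Ccnb2, Cdc25b, Kif11, Kif20a and Nusap1. The remaining member, Ccnd1, was lowest on prednisolone 1, as were 21.3% of all genes. The highest array was anti-IL6R 2 for 28 members, prednisolone 2 for 15, high 1 for 8 and prednisolone 1 for 1. The share of all genes was not worked out for the highest array, so these counts cannot be set against it. With low 1 left out, a check chosen after seeing the data, high 2 was the lowest of 7 arrays for 33 members, against 17.6% of all genes, anti-IL6R 1 for 13 (11.2%) and prednisolone 1 for 6 (22.3%).

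**Figure D1:**
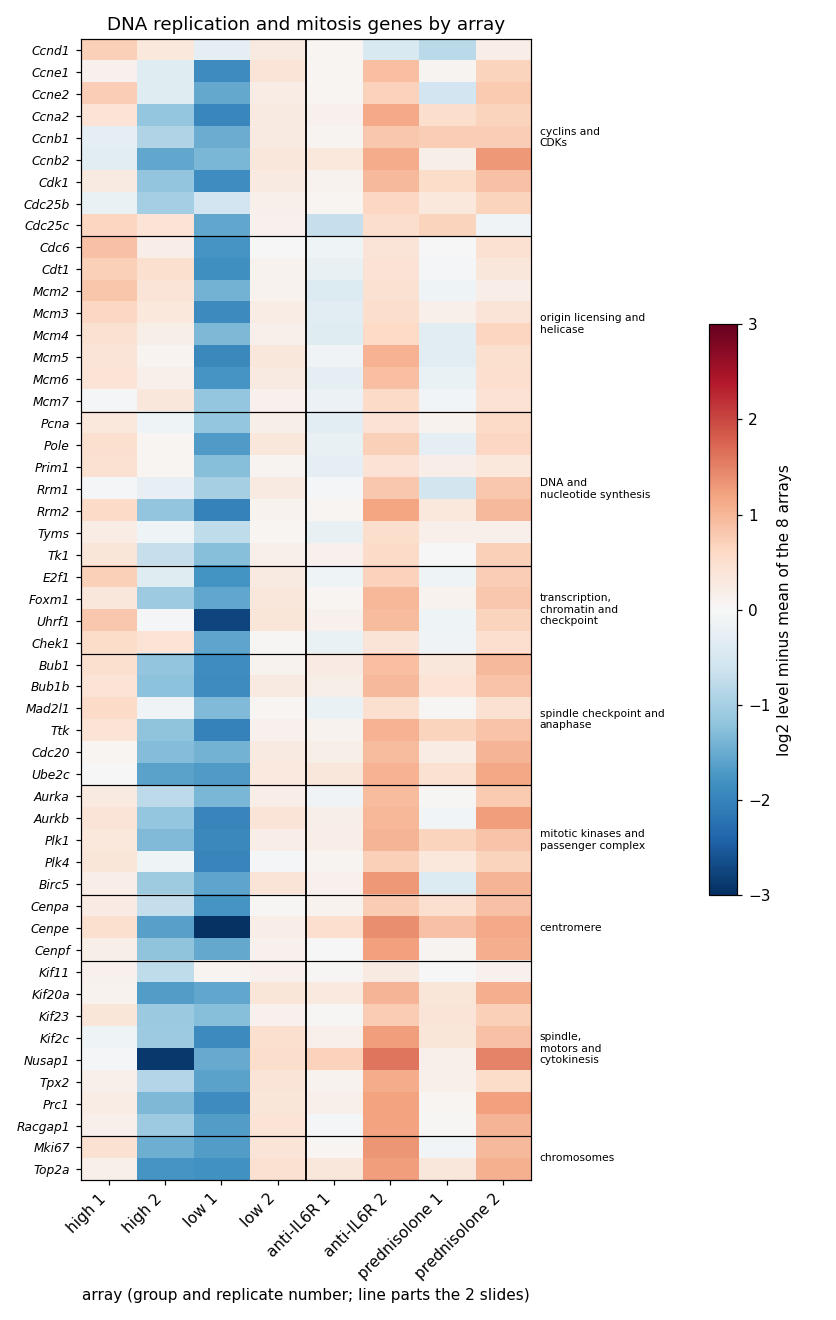
Log2 level of each of the 52 members on each array, minus its mean over the 8 arrays (colour, red above and blue below), with genes in rows grouped by role and arrays in columns. Low 1 is blue across nearly all roles, with a median of -1.63, and high 2 is blue mainly in the mitotic roles, with a median of -0.83 over all members.

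The median deviation of the 52 members from their own 8-array mean was 0.37 on high 1 and -0.83 on high 2. It was -1.63 on low 1 and 0.24 on low 2. In the treated grafts it was 0.06 and 0.91 with anti-IL6R and 0.11 and 0.74 with prednisolone. Over all genes tested the same medians ran from -0.05 to 0.09. Scaling each array to its 75th percentile and centring each gene hold these all-gene medians near 0, so the size of a gap regardless of its sign is given beside the signed gaps that follow.

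High 1 exceeded high 2 for 51 of 52 members, with a median gap of 1.04 log2 units against -0.05 over all genes. Regardless of sign the median gap of all genes between these arrays was 0.28. Low 2 exceeded low 1 for 52 of 52 members, with a median gap of 1.94 against -0.04 over all genes and 0.25 regardless of sign. The low 2 to low 1 gap was over 2-fold for 48 members, against 3.45% of all genes, and over 4-fold for 21, against 0.675%. The high 1 to high 2 gap was over 2-fold for 27 members, against 5.7% of all genes, and over 4-fold for 2, against 1.07%. All 27 also had a low 2 to low 1 gap over 2-fold, a combination that 1.04% of all genes showed. A gap between single arrays has no replicate check, so these are descriptions of 4 grafts and no test was made of them.

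The pattern differed by role. The 15 members of licensing, helicase and DNA and nucleotide synthesis had a median gap of 0.35 between high 1 and high 2 and of 1.51 between low 2 and low 1. The 24 members of the spindle checkpoint, mitotic kinases, centromere, spindle and chromosomes had gaps of 1.50 and 1.99. Low 1 and high 2 were the 2 lowest arrays for 22 of the 24 mitotic members, with Mad2l1 and Kif11 as exceptions, but for 2 of the 15 replication members, Rrm2 and Tk1. The same pair of arrays was lowest for 3.28% of all genes tested. Most replication genes were therefore low on low 1 alone, and most mitotic genes on low 1 and high 2.

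**Figure D2:**
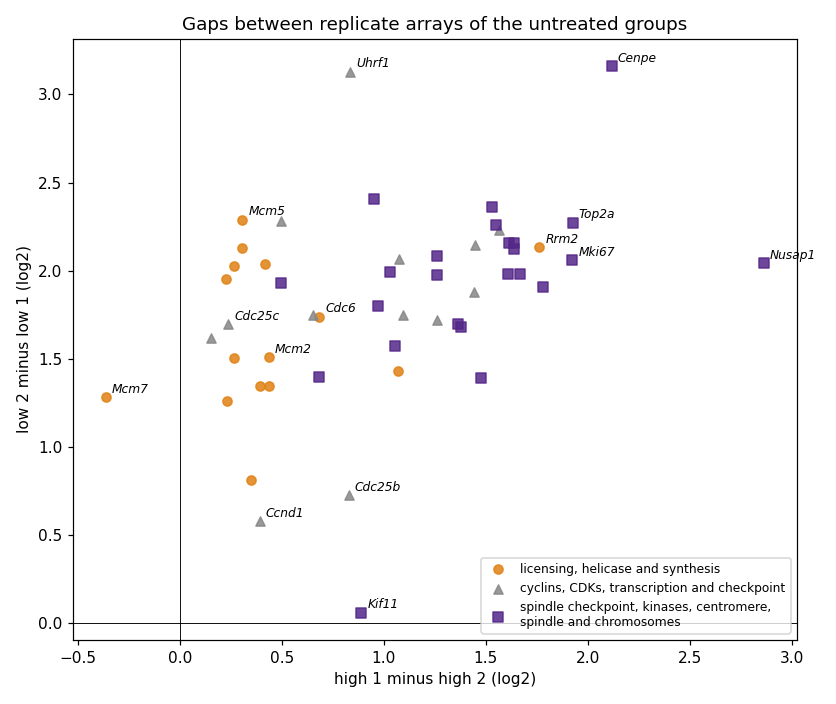
Gap between the replicate arrays of the high-difference group (x axis, high 1 minus high 2, log2) against that of the low-difference group (y axis, low 2 minus low 1, log2), with 1 point per member coloured by role. All points lie above 0 on the y axis, replication genes gather at the left with a median of 0.35 on the x axis and mitotic genes further right with a median of 1.50.

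Cdc6 and Cdt1 load the MCM ring onto origins. Cdc6 had log2 levels of 0.01 and -0.67 in high-difference, -2.62 and -0.88 in low-difference, -0.99 and -0.47 in anti-IL6R and -0.85 and -0.40 in prednisolone grafts. Cdt1 had 0.15 and -0.07 in high-difference, -2.40 and -0.45 in low-difference, -0.78 and -0.13 in anti-IL6R and -0.60 and -0.23 in prednisolone grafts. Low 1 was the lowest array for both by more than 1 log2 unit, and both high-difference arrays lay above both low-difference arrays.

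The 6 subunits of the MCM helicase behaved alike. Mcm2 had log2 levels of 2.54 and 2.11 in high-difference, 0.31 and 1.82 in low-difference, 1.31 and 2.17 in anti-IL6R and 1.59 and 1.92 in prednisolone grafts. The levels of Mcm5 were 0.31 and 0.00 in high-difference, -2.03 and 0.26 in low-difference, -0.18 and 0.96 in anti-IL6R and -0.43 and 0.40 in prednisolone grafts. The replicates of these subunits lay 0.43 and 0.30 log2 units apart in the high-difference grafts, and 1.51 and 2.29 apart in the low-difference grafts. Mcm3, Mcm4, Mcm6 and Mcm7 had low 2 to low 1 gaps of 2.13, 1.51, 2.03 and 1.28. Mcm7 was the single member of the 52 that was higher on high 2 than on high 1, where high 1 minus high 2 was -0.36.

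Promoter sequences were examined because replication and mitotic members followed different arrays. Windows of 300 bases, 250 before to 50 after the start, came from RefSeq for the GRCr8 assembly and were matched by symbol for 40 of the 52 members. They were searched on both strands for the E2F letters TTTGGCGC, TTTCGCGC, TTTCCCGC and TTTGCCGC, for the CCAAT box (CCAAT), to which NF-Y binds, and for the cell cycle homology region or CHR (TTTGAA), to which MuvB complexes bind. An E2F match on one strand can overlap a match on the other strand or a CCAAT box. Of all 33469 windows, 2.14% held an E2F match, 37.5% a CCAAT box and 18.4% a CHR match. These shares are per window, whereas a listed gene was counted once, if any window of its symbol held a match. An E2F match stood in 6 of 6 windows of licensing and helicase genes and in 8 of 12 of all replication members. A CHR match stood in 1 of these 12, that of a licensing gene.

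The stretches below, 150 bases up to the start with matches in capitals, show 4 helicase genes that were low on low 1 alone. They lie at chr4:122918095-122918244 (minus strand), chr19:13488663-13488812 (plus strand), chr13:42404353-42404502 (minus strand) and chr12:22163179-22163328 (minus strand).
Mcm2: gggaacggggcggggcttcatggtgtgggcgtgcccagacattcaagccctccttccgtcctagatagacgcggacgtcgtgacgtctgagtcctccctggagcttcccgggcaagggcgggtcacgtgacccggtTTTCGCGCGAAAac
Mcm5: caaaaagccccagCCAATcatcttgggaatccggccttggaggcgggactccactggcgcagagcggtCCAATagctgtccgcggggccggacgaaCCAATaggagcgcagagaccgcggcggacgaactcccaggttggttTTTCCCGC
Mcm6: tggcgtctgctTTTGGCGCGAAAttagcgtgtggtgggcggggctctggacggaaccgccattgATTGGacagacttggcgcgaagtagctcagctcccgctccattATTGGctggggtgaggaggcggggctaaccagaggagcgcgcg
Mcm7: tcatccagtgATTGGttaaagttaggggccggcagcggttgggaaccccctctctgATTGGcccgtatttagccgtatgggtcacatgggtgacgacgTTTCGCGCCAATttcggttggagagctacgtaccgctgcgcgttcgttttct
The Mcm2 and Mcm6 stretches held paired E2F matches that overlap on opposite strands. In Mcm7 the E2F match ran into a CCAAT box. A match describes letters and is no measured binding site.

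Genes of DNA and nucleotide synthesis had a median low 2 to low 1 gap of 1.35, against 1.85 for licensing and helicase genes, and a high 1 to high 2 gap of 0.42 against 0.28. Pcna, the sliding clamp of the polymerases, had log2 levels of 4.05 and 3.62 in high-difference, 2.57 and 3.92 in low-difference, 3.41 and 4.16 in anti-IL6R and 3.84 and 4.32 in prednisolone grafts. Tyms, which makes thymidylate, had 0.35 and 0.00 in high-difference, -0.64 and 0.18 in low-difference, -0.09 and 0.64 in anti-IL6R and 0.28 and 0.27 in prednisolone grafts, the narrowest low 2 to low 1 gap of this role at 0.81. For both, low 1 was lowest and the other arrays lay within 1 log2 unit of each other.

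Rrm2, the regulated subunit of ribonucleotide reductase, departed from this. Its levels were 1.29 and -0.47 in high-difference, -1.31 and 0.83 in low-difference, 0.78 and 1.90 in anti-IL6R and 1.03 and 1.69 in prednisolone grafts. Both high 2 and low 1 lay below every other array, as for the mitotic genes. Tk1, the salvage thymidine kinase, showed the same order with gaps of 1.07 and 1.43. The polymerase gene Pole, the primase gene Prim1 and the large reductase subunit gene Rrm1 had high 1 to high 2 gaps of 0.42, 0.39 and 0.23.

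Cyclin D1 did not follow the others. Ccnd1, which starts the cycle in response to growth signals, had log2 levels of 6.86 and 6.47 in high-difference, 5.85 and 6.43 in low-difference, 6.21 and 5.70 in anti-IL6R and 5.34 and 6.35 in prednisolone grafts. High 1 was highest and prednisolone 1 lowest, and the low 2 to low 1 gap was 0.58. Cyclin E1, which acts at entry into S phase, had levels of 3.72 and 3.22 in high-difference, 1.69 and 3.97 in low-difference, 3.64 and 4.49 in anti-IL6R and 3.67 and 4.25 in prednisolone grafts. Here low 1 stood alone, 1.54 log2 units below the next array, high 2. Ccne2, its paralog, was also lowest on low 1, with gaps of 1.10 and 1.75.

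The cyclins of S phase and mitosis were low on both arrays. Ccna2, cyclin A2, had log2 levels of 1.59 and 0.02 in high-difference, -0.78 and 1.45 in low-difference, 1.31 and 2.32 in anti-IL6R and 1.70 and 1.85 in prednisolone grafts. Ccnb1, a cyclin of mitotic entry, had 1.23 and 0.58 in high-difference, 0.01 and 1.76 in low-difference, 1.58 and 2.30 in anti-IL6R and 2.23 and 2.23 in prednisolone grafts. For Ccnb2, its paralog, the levels were -0.18 and -1.44 in high-difference, -1.25 and 0.47 in low-difference, 0.45 and 1.23 in anti-IL6R and 0.30 and 1.43 in prednisolone grafts. High 2 and low 1 lay below every other array for these 3 cyclins, and prednisolone or anti-IL6R arrays were highest.

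Cdk1, the kinase that these cyclins bind, had log2 levels of 4.71 and 3.26 in high-difference, 2.57 and 4.71 in low-difference, 4.54 and 5.42 in anti-IL6R and 4.98 and 5.33 in prednisolone grafts. Its low 2 to low 1 gap was 2.14 and its high 1 to high 2 gap 1.45. The phosphatases that activate it differed from each other. Cdc25b had levels of -1.70 and -2.52 in high-difference, -2.09 and -1.36 in low-difference, -1.44 and -0.89 in anti-IL6R and -1.18 and -0.84 in prednisolone grafts, and Cdc25c had -2.61 and -2.84 in high-difference, -4.82 and -3.12 in low-difference, -3.95 and -2.72 in anti-IL6R and -2.59 and -3.36 in prednisolone grafts. Cdc25b was lowest on high 2, whereas Cdc25c was lowest on low 1 and higher on high 2 than on low 2.

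Among regulators of transcription and chromatin, E2f1, an activator of replication genes, had log2 levels of 3.93 and 2.85 in high-difference, 1.41 and 3.47 in low-difference, 3.08 and 3.90 in anti-IL6R and 3.07 and 3.95 in prednisolone grafts. Foxm1, which activates mitotic genes, had 2.41 and 0.96 in high-difference, 0.51 and 2.39 in low-difference, 2.11 and 3.05 in anti-IL6R and 2.17 and 2.87 in prednisolone grafts. Low 1 was lowest and high 2 next lowest for both, with high 1 to high 2 gaps of 1.08 and 1.44. Uhrf1, which keeps DNA methylation through replication, had -2.07 and -2.90 in high-difference, -5.62 and -2.50 in low-difference, -2.74 and -1.91 in anti-IL6R and -3.00 and -2.20 in prednisolone grafts. Its low 2 to low 1 gap of 3.13 was the second largest of all members, after Cenpe at 3.16, whose low 1 level was not well above background. Chek1, the checkpoint kinase of stalled replication, had -0.26 and -0.41 in high-difference, -2.40 and -0.79 in low-difference, -1.03 and -0.44 in anti-IL6R and -0.91 and -0.31 in prednisolone grafts, so that high 2 lay close to high 1.

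**Figure D3:**
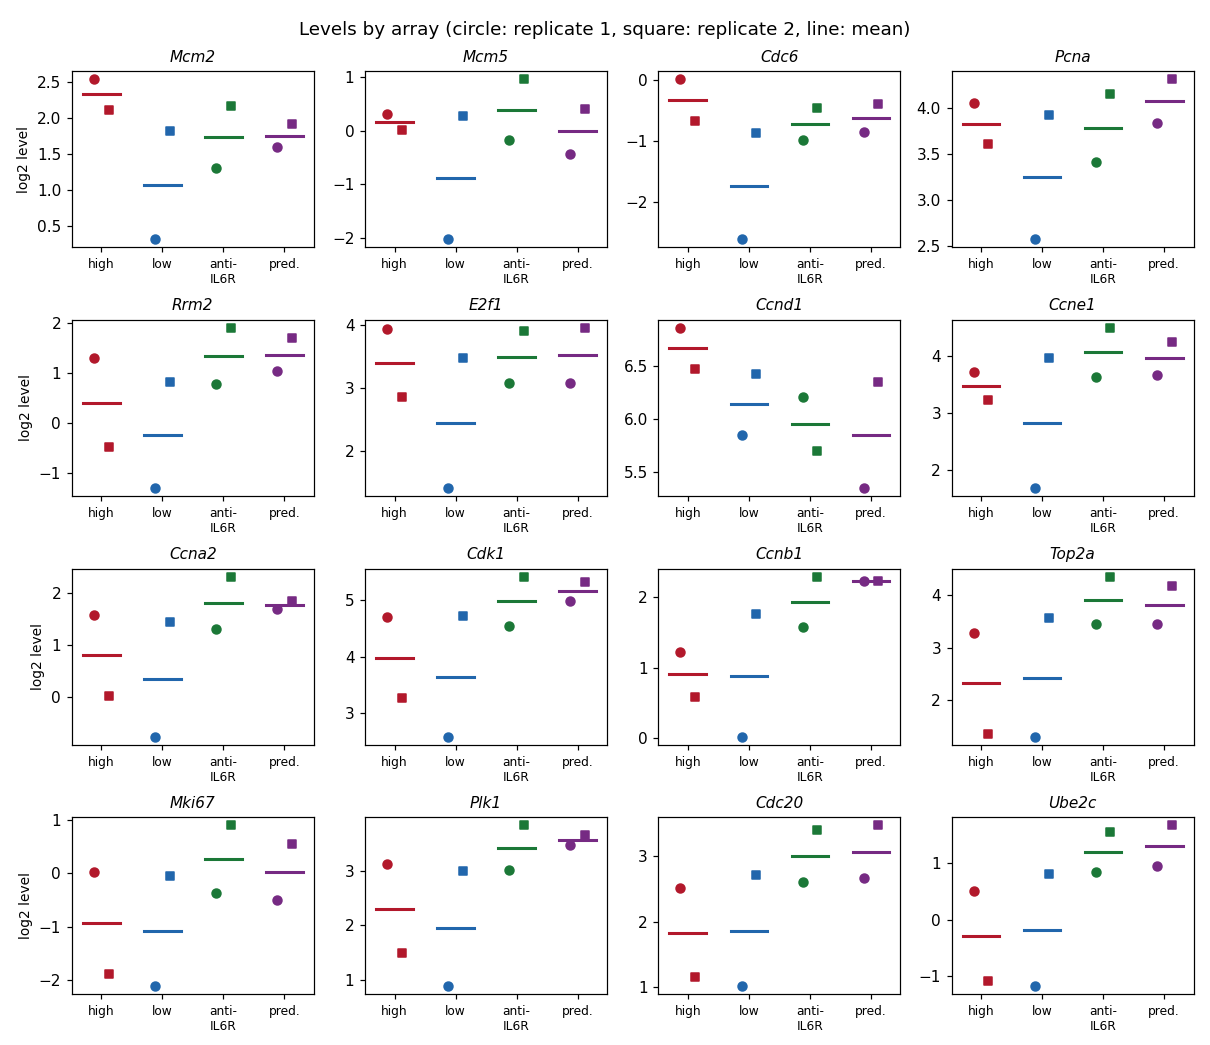
Log2 levels of 16 members by group (circle replicate 1, square replicate 2, line group mean of 2 arrays), 1 panel per gene with its own y axis. The low-difference replicates lie apart in nearly every panel, by 2.27 for Top2a and 0.58 for Ccnd1, while the high-difference replicates lie close for Mcm5 (0.30) and apart for Top2a (1.93).

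Most mitotic genes shared low levels on high 2 and low 1. Mki67, the Ki-67 antigen of cycling cells, had log2 levels of 0.03 and -1.89 in high-difference, -2.11 and -0.05 in low-difference, -0.37 and 0.90 in anti-IL6R and -0.50 and 0.55 in prednisolone grafts. Top2a, the topoisomerase that untangles sister chromatids, had 3.28 and 1.36 in high-difference, 1.29 and 3.57 in low-difference, 3.45 and 4.36 in anti-IL6R and 3.46 and 4.18 in prednisolone grafts. The Top2a signal was 4.83-fold higher on low 2 than on low 1 and 3.80-fold higher on high 1 than on high 2. For both genes high 1 and low 2, from different groups, lay 0.08 (Mki67) and 0.28 (Top2a) log2 units apart.

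The spindle checkpoint kinase gene Bub1b had log2 levels of 1.77 and 0.13 in high-difference, -0.52 and 1.64 in low-difference, 1.53 and 2.32 in anti-IL6R and 1.77 and 2.21 in prednisolone grafts. Ube2c, the ubiquitin-conjugating enzyme of the anaphase-promoting complex, had 0.51 and -1.10 in high-difference, -1.18 and 0.80 in low-difference, 0.85 and 1.55 in anti-IL6R and 0.96 and 1.67 in prednisolone grafts. Both genes were low on high 2 and low 1 and at like levels on high 1 and low 2. Bub1, Ttk and Cdc20 had high 1 to high 2 gaps of 1.67, 1.61 and 1.36. Mad2l1, a checkpoint inhibitor of Cdc20, had a gap of 0.68 there and of 1.40 between low 2 and low 1.

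Among mitotic kinases, Plk1 had log2 levels of 3.13 and 1.49 in high-difference, 0.88 and 3.01 in low-difference, 3.03 and 3.85 in anti-IL6R and 3.49 and 3.66 in prednisolone grafts. Aurkb, the kinase of the chromosomal passenger complex, had -0.91 and -2.44 in high-difference, -3.26 and -0.90 in low-difference, -1.11 and -0.30 in anti-IL6R and -1.37 and -0.05 in prednisolone grafts, and its partner survivin, Birc5, had 1.63 and 0.36 in high-difference, -0.16 and 1.81 in low-difference, 1.54 and 2.71 in anti-IL6R and 1.01 and 2.45 in prednisolone grafts. Low 1 was lowest and high 2 next for all 3 genes. Aurka had gaps of 1.05 and 1.57, and Plk4, which duplicates centrioles, had 0.50 and 1.93, nearer to the replication genes.

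Cenpf, a kinetochore protein gene, had log2 levels of -3.54 and -4.91 in high-difference, -5.26 and -3.57 in low-difference, -3.70 and -2.49 in anti-IL6R and -3.62 and -2.62 in prednisolone grafts. Cenpa, the centromeric histone, had gaps of 0.97 and 1.80. Nusap1, a spindle protein gene, had -3.71 and -6.57 in high-difference, -5.20 and -3.16 in low-difference, -2.99 and -2.07 in anti-IL6R and -3.54 and -2.20 in prednisolone grafts, the largest high 1 to high 2 gap of all members at 2.86. The high 2 level of Nusap1 was not well above background, and that gap is less certain.

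Kif11, a motor that keeps spindle poles apart, was the exception among motors. Its log2 levels were -0.71 and -1.60 in high-difference, -0.76 and -0.70 in low-difference, -0.82 and -0.57 in anti-IL6R and -0.85 and -0.70 in prednisolone grafts. It was low on high 2 alone, and low 1 lay 0.06 below low 2. A second Kif11 probe was well above background on 2 arrays and cannot settle the pattern. Kif20a, Kif23 and Kif2c had low 2 to low 1 gaps of 1.90, 1.39 and 2.41, and Tpx2, Prc1 and Racgap1, of the spindle and of cytokinesis, had gaps of 1.99, 2.26 and 2.08.

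Promoter windows of mitotic members differed from those of the helicase in E2F and CHR letters. A CCAAT box was present in 14 of 20 mitotic windows, 4 of 6 licensing and helicase windows and 28 of 40 in all, against 37.5% of all windows. A CHR match stood in 14 of 20 windows, against 18.4% of all windows, and an E2F match in 0 of 20, against 2.14%. The 4 stretches below, 150 bases up to the start, show genes low on both high 2 and low 1. They lie at chr20:19265143-19265292 (plus strand), chr5:137255800-137255949 (minus strand), chr10:84473094-84473243 (minus strand) and chr1:143659331-143659480 (plus strand).
Cdk1: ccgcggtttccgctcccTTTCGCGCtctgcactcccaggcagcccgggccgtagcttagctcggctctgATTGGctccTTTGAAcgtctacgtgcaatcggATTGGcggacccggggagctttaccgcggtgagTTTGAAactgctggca
Cdc20: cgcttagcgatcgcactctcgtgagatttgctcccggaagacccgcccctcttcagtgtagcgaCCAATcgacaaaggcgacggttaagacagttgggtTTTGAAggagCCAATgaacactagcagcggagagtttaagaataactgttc
Top2a: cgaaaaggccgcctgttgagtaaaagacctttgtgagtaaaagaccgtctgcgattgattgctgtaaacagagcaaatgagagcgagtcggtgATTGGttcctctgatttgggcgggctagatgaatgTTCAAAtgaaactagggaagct
Prc1: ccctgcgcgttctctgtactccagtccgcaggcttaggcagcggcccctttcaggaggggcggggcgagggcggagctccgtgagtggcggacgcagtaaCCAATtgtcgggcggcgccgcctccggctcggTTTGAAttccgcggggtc
Matches are in capitals, and TTCAAA and ATTGG are the CHR and CCAAT letters read from the other strand. Each stretch holds a CHR match and a CCAAT box, and that of Cdk1 also holds an E2F match. Cdk1 was grouped with the cyclins and CDKs and is not among the 20 mitotic windows.

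Over the 40 members with a window, the 11 with an E2F match had a median high 1 to high 2 gap of 0.30 and the 29 without one of 1.26. The 18 with a CHR match had a median gap of 1.41 and the 22 without one of 0.47. The low 2 to low 1 gap was 2.03 with and 1.80 without an E2F match, and 1.95 with and 1.83 without a CHR match. Over all tested genes with a window the medians of both gaps lay between -0.04 and 0.10, whether or not these letters were present. Motif and role overlap in these members, so these values are a description.

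High-difference grafts were compared with low-difference grafts to address the weight difference between donor and recipient. The median log2 difference, high minus low, was 0.44 over the members against 0.07 over all genes, with 44 members above 0 and 8 below. The difference was largest for licensing and helicase genes, with a median of 1.15 and 8 of 8 above 0, and was 0.59 for DNA synthesis genes with 7 of 7 above 0. It was 0.13 for spindle and motor genes and 0.02 for Mki67 and Top2a together. Limma called 0 of 24462 genes and 0 of 52 members at an adjusted p under 0.05 (0.0% of all genes). At an unadjusted p under 0.05, 3588 genes passed, 1223 would by chance, and 1 member did, Cdc6. Of all genes, 8.24% passed this unadjusted threshold with higher and 6.43% with lower values in high-difference grafts.

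Cdc6 had the smallest p of the members, with a difference of 1.42 ± 0.58 (SE, adjusted p = 0.337). Cdt1 followed with 1.46 ± 0.61 (SE, adjusted p = 0.342), Mcm2 with 1.26 ± 0.53 (SE, adjusted p = 0.345) and Chek1 with 1.26 ± 0.54 (SE, adjusted p = 0.346). Without low 1 these differences were 0.55, 0.49, 0.50 and 0.45, and without low 2 they were 2.29, 2.44, 2.01 and 2.07, in the same order of genes. For 8 members both high-difference arrays lay above both low-difference arrays, 15.4% of members against 33.5% of all genes. They were Ccnd1, Cdc25c, Cdc6, Cdt1, Mcm2, Mcm3, Mcm4 and Chek1. For 0 members did the high-difference arrays lie below, against 23.0% of all genes. None of these values passed the adjusted threshold.

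Single arrays decided the direction of the member median. It was -0.46 without low 1 and 1.42 without low 2, and -0.24 without high 1 and 1.05 without high 2. High 1 minus low 2, the difference that remains when high 2 and low 1 are both left out, had a median of 0.13 over the members and 0.07 over all genes. It was above 0 for 7 of 8 licensing and helicase genes (median 0.35), for 6 of 7 synthesis genes (0.17) and for 1 of 8 spindle and motor genes (-0.24). Without low 1, both high-difference arrays lay above low 2 for the same 8 members, against 44.9% of all genes. Low 2 exceeded low 1 for 52 of 52 members, so this count could not change. Without high 2, high 1 lay above both low-difference arrays for 33 members, against 42.3% of all genes.

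The comparison of anti-IL6R with untreated high-difference grafts addressed blockade of IL-6 signalling. The median log2 difference, anti-IL6R minus high, was 0.73 over the members against -0.09 over all genes, with 40 above 0 and 12 below. It was -0.28 for licensing and helicase genes and 0.10 for synthesis genes. It was 0.98 for the spindle checkpoint, 0.97 for mitotic kinases, 1.13 for the centromere, 1.14 for spindle and motors and 1.39 for Mki67 and Top2a. Limma called 0 of 24462 genes and 0 members (0.0% of all genes), with 4332 genes at an unadjusted p under 0.05. The 1 member among these was Cdc25b, higher with anti-IL6R. Of all genes, 7.09% passed it with higher and 10.6% with lower values.

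Cdc25b differed by 0.95 ± 0.39 (SE, adjusted p = 0.282). Nusap1 differed by 2.62 ± 1.10 (SE, adjusted p = 0.285), Ccnb2 by 1.65 ± 0.73 (SE, adjusted p = 0.3) and Ube2c by 1.49 ± 0.78 (SE, adjusted p = 0.357). Without high 2 the 4 differences were 0.53, 1.18, 1.02 and 0.69, and without high 1 they were 1.36, 4.05, 2.28 and 2.30, in the same order of genes. With normexp background correction the Nusap1 difference was 1.31. Both anti-IL6R arrays lay above both high-difference arrays for 10 members, 19.2% against 23.4% of all genes. These were Top2a, Ccnb1, Ccnb2, Cdc20, Cdc25b, Cenpe, Kif20a, Kif2c, Nusap1 and Ube2c. Cenpe passed the filter on dim probes only through the treated groups, where it was higher, so its place in this count carries no weight. Nusap1 was not well above background on high 2. Both anti-IL6R arrays lay below both high-difference arrays for Ccnd1, Cdt1 and Chek1, against 36.3% of all genes.

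Here too 1 array carried most of the difference. Without high 2 the member median was 0.17, and without high 1 it was 1.29. The count of members on which both anti-IL6R arrays were higher was also 10 against high 1 alone, and the share of all genes was then 33.4%. High 1 was above high 2 for 51 of 52 members, so this count had little room to change. The anti-IL6R replicates also differed, with anti-IL6R 2 above anti-IL6R 1 for 51 of 52 members by a median of 0.83, against -0.04 over all genes and 0.22 regardless of sign. Ccnd1 was the exception. The member median was 0.36 without anti-IL6R 2 and 1.17 without anti-IL6R 1.

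Prednisolone against untreated high-difference grafts gave like values. However, the comparison shares its control arrays with that of anti-IL6R, and in both the treated arrays lay on slide 2 and the controls on slide 1. The median log2 difference, prednisolone minus high, was 0.72 over the members against -0.08 over all genes, with 38 above 0 and 14 below. It was -0.19 for licensing and helicase genes and 0.25 for synthesis genes. The medians of the mitotic roles ran from 0.74 for the kinases to 1.23 for Mki67 and Top2a, and 24 of 24 mitotic members were above 0. Limma called 0 of 24462 genes and 0 members (0.0% of all genes), with 2892 genes at an unadjusted p under 0.05. Cdc25b was the 1 member among these, higher with prednisolone. Of all genes, 4.25% passed it with higher and 7.58% with lower values.

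Cdc25b differed by 1.10 ± 0.39 (SE, adjusted p = 0.386), Ccnb2 by 1.68 ± 0.73 (SE, adjusted p = 0.438), Ccnb1 by 1.33 ± 0.58 (SE, adjusted p = 0.439) and Nusap1 by 2.27 ± 1.10 (SE, adjusted p = 0.464). Without high 2 the difference was 0.69 for Cdc25b, 1.05 for Ccnb2 and 0.84 for Nusap1, and without high 1 it was 1.51, 2.31 and 3.71. Both prednisolone arrays lay above both high-difference arrays for 18 members, 34.6% against 13.9% of all genes. They were Top2a, Ccna2, Ccnb1, Ccnb2, Cdk1, Cdc20, Cdc25b, Bub1b, Ttk, Plk1, Cenpa, Cenpe, Kif20a, Kif23, Kif2c, Nusap1, Tpx2 and Ube2c. No licensing, helicase or synthesis gene was among them. Here too Cenpe had passed the filter only through the treated groups, and Nusap1 was not well above background on high 2. Ccnd1, Cdt1 and Mcm2 lay below on both arrays, 5.77% of members against 25.0% of all genes.

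Without high 2 the member median was 0.15, and without high 1 it was 1.29. The count of members with both prednisolone arrays higher was also 18 against high 1 alone, for which the share of all genes was 23.7%. Since high 1 was above high 2 for 51 of 52 members, leaving out high 2 had little room to change it. This count is fragile, since the lower prednisolone array lay 0.00017 log2 units above high 1 for Tpx2, 0.0023 for Bub1b and 0.0093 for Kif23, which are in effect ties. The margin was 0.11 for Ccna2, 0.18 for Top2a and 0.27 for Cdk1. For Ccnb1 the margin was 1.0. With normexp background correction the Nusap1 difference was 1.15.

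**Figure D4:**
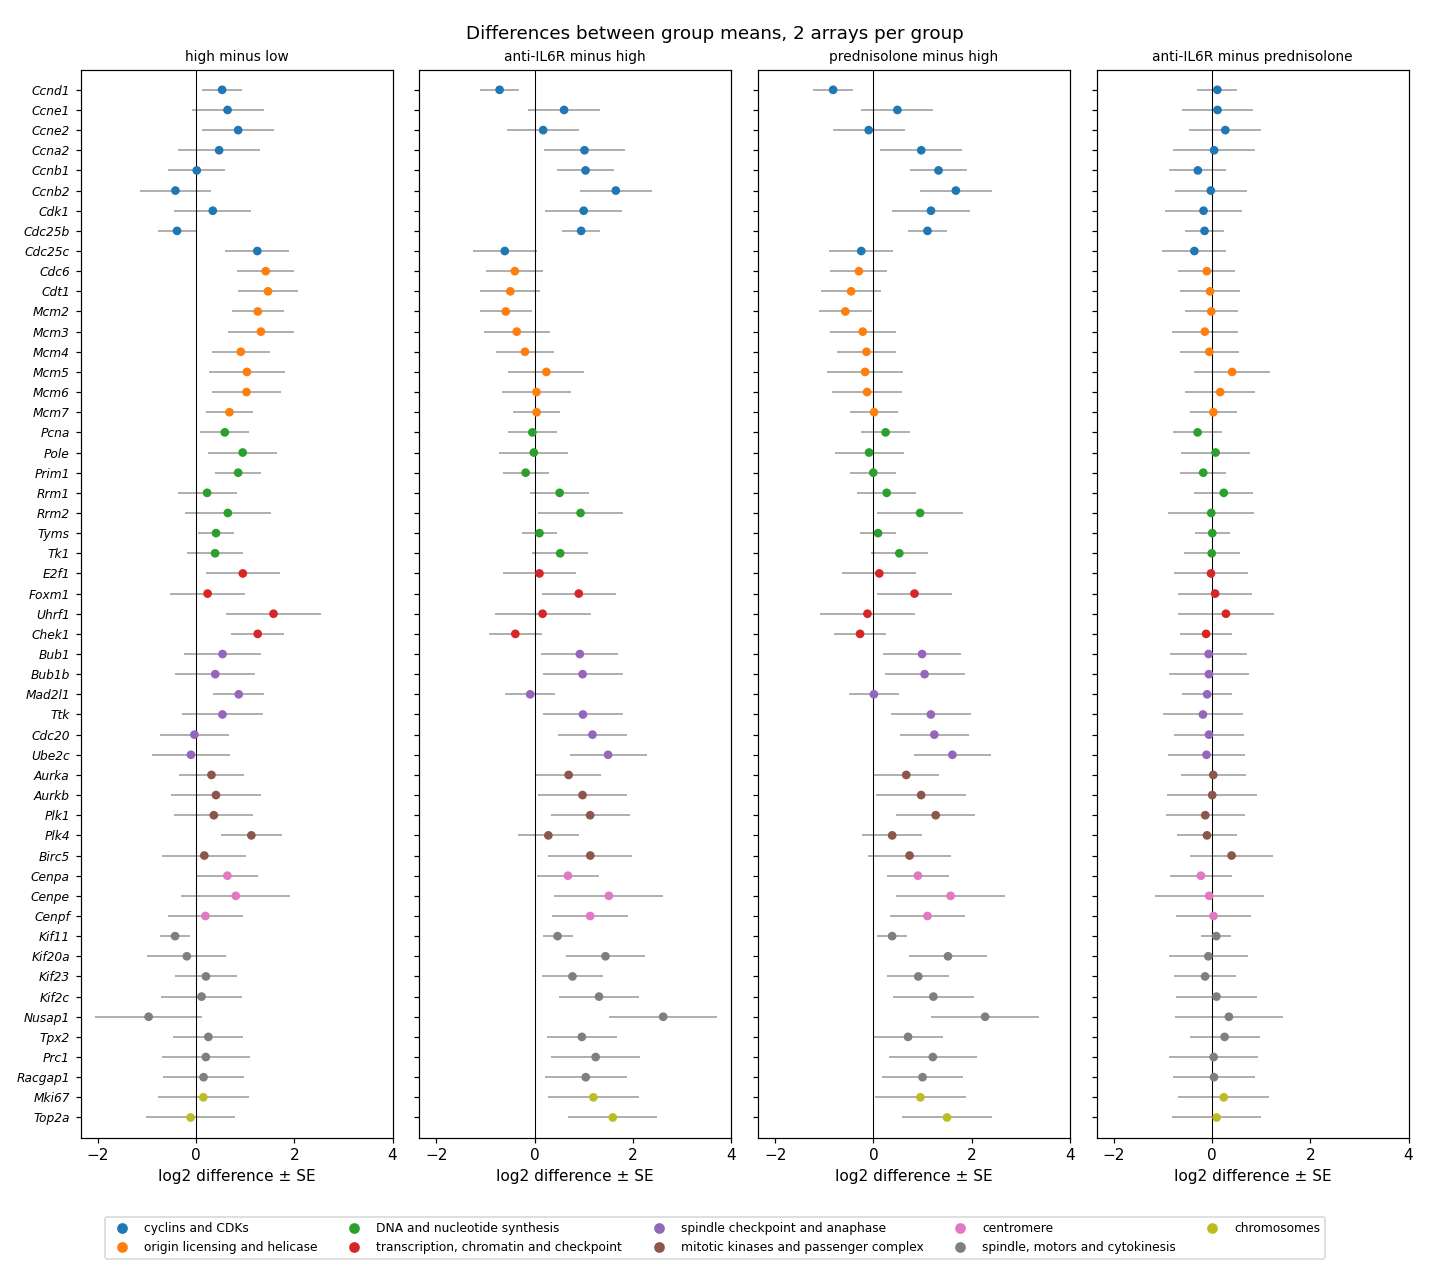
Log2 difference between group means for each member in the 4 comparisons (x axis, point with its moderated standard error, 2 arrays per group), coloured by role. Licensing and helicase genes lie above 0 in high minus low (median 1.15) and mitotic genes above 0 in both treatment comparisons (medians 1.08 and 1.02) except Mad2l1 with anti-IL6R (-0.09), and no member passed the adjusted threshold.

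The treated groups, both on slide 2, were also compared with each other. The median log2 difference, anti-IL6R minus prednisolone, was -0.02 over the members against -0.01 over all genes, and single members ran from -0.36 to 0.41. The smallest p belonged to Pcna, with -0.30 ± 0.49 (SE, adjusted p = 1). Cdc25c gave -0.36 ± 0.65 (SE, adjusted p = 1), Mcm5 0.41 ± 0.78 (SE, adjusted p = 1) and Ccnb1 -0.29 ± 0.58 (SE, adjusted p = 1). Limma called 0 genes (0.0%), with 831 at an unadjusted p under 0.05, fewer than the 1223 expected by chance and with 0 members among them. Of all genes, 2.58% passed it with higher and 0.822% with lower values. For 0 members did the arrays of the groups not overlap, against 11.9% of all genes higher and 14.3% lower with anti-IL6R. The 95% interval of the difference reached 0.74 to 2.67 log2 units to either side of it, and over 1 unit for 48 of 52 members, so a 2-fold difference would not have been detectable for most of them.

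Prednisolone replicates also lay apart. Prednisolone 2 exceeded prednisolone 1 for 50 of 52 members, by a median of 0.62 against 0.05 over all genes. Regardless of sign these arrays differed by a median of 0.65 over the members and 0.43 over all genes, so genes in general also lay apart here. Anti-IL6R 2 and prednisolone 2 were the 2 highest arrays for 38 members, against 3.82% of all genes tested. The member median of anti-IL6R minus prednisolone was -0.43 without anti-IL6R 2, 0.38 without anti-IL6R 1, 0.30 without prednisolone 2 and -0.32 without prednisolone 1.

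Further genes of the same processes were also mostly lowest on low 1. Of 36 further replication genes, among them clamp loader, ligase and origin recognition genes, 31 were tested and 28 were lowest on low 1, against 13.6% of all genes. Their median gaps were 0.33 between high 1 and high 2 and 1.43 between low 2 and low 1. Of 60 further mitosis genes, among them condensin, kinetochore and kinesin genes, 48 were tested and 43 were lowest on low 1, with median gaps of 1.04 and 1.82. Low 1 and high 2 were the 2 lowest arrays for 40 of these 48 and for 6 of the 31, against 3.28% of all genes. In each comparison 0 genes of either list passed the adjusted threshold, up or down.

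The further replication genes had a median high minus low difference of 0.90, with 29 of 31 above 0. The further mitosis genes had 0.44, and differed from high-difference grafts by 0.73 with anti-IL6R and 0.79 with prednisolone. An E2F match stood in 13 of 31 windows of the further replication genes and in 2 of 53 of the further mitosis genes. A CHR match stood in 3 of 31 and 34 of 53.

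Genes upstream of replication went in both directions. Of 18 genes of the cyclin D and CDK axis, 14 were tested and 6 were lowest on low 1, against 13.6% of all genes, but low 1 and high 2 were the lowest pair for 0. Their median deviation from the 8-array mean ran from -0.29 on low 1 to 0.23 on high 1. Myc, a growth-response factor, had log2 levels of 2.64 and 4.11 in high-difference, 1.04 and 1.43 in low-difference, 1.44 and 1.05 in anti-IL6R and 3.00 and 0.47 in prednisolone grafts, highest on high 2 where mitotic genes were low. Of 20 CDK inhibitors and other brakes, 19 were tested, and 4 were lowest on low 1 and 7 on high 2, against 13.6% and 15.8% of all genes. Cdkn1a, the inhibitor p21, had 1.22 and 1.43 in high-difference, -0.48 and 0.33 in low-difference, 0.39 and 0.47 in anti-IL6R and 1.59 and 0.70 in prednisolone grafts, and Cdkn1c, the inhibitor p57, had 2.30 and 1.68 in high-difference, 3.00 and 3.04 in low-difference, 3.06 and 2.84 in anti-IL6R and 2.66 and 3.03 in prednisolone grafts. Cdkn1a lay higher and Cdkn1c lower on both high-difference than on both low-difference arrays, by 1.40 ± 0.38 (SE, adjusted p = 0.308) and -1.03 ± 0.26 (SE, adjusted p = 0.308). Neither passed. Cdkn3, a CDK phosphatase gene on the same list, had 2.61 and 1.47 in high-difference, 1.07 and 2.88 in low-difference, 3.04 and 3.57 in anti-IL6R and 3.03 and 3.85 in prednisolone grafts, with low 1 and high 2 lowest.

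**Figure D5:**
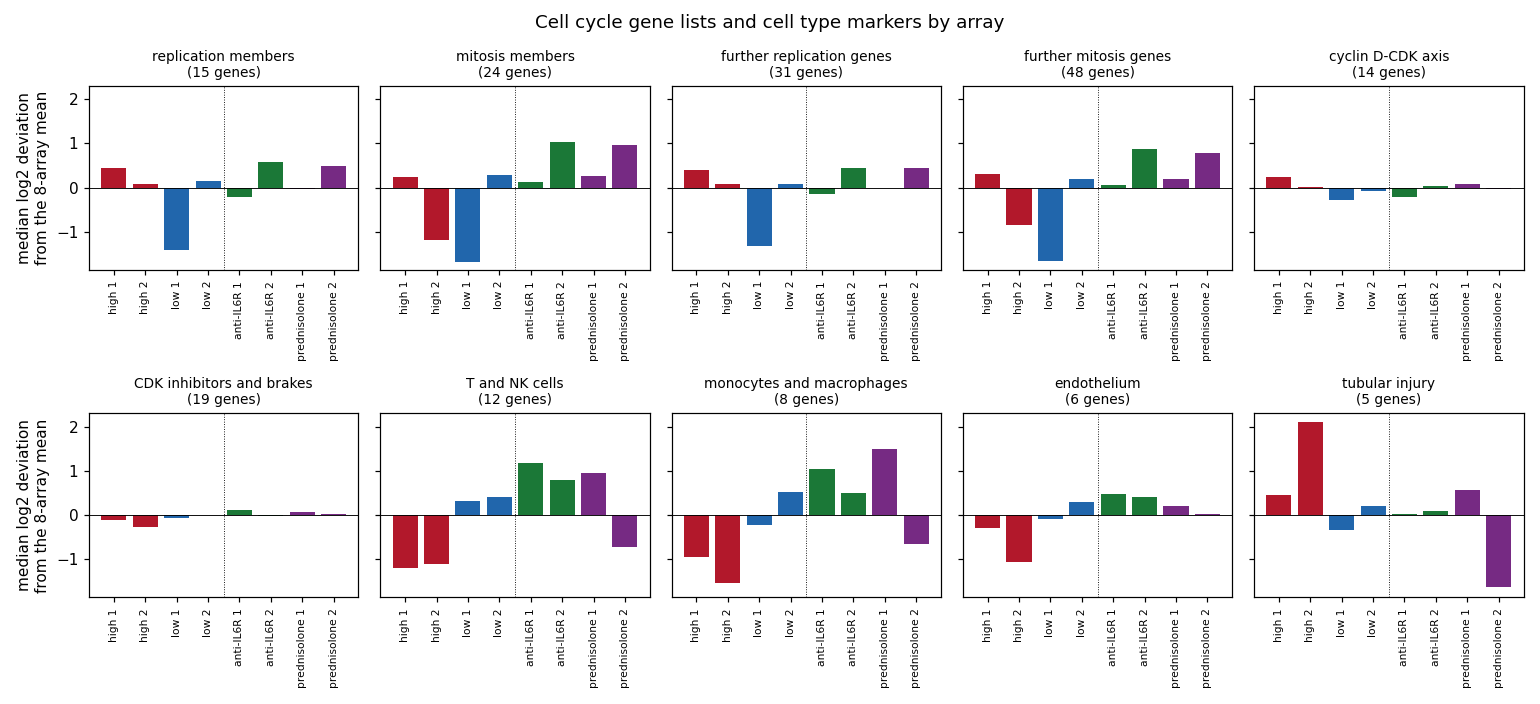
Median log2 deviation from the 8-array mean on each array (bars, coloured by group) for replication and mitosis members, further cell cycle lists and 4 marker lists, with the number of genes tested in brackets and a dotted line between slides. Replication and mitosis bars are lowest on low 1 (-1.41 and -1.68), whereas T and NK cell markers are above their mean on both low-difference arrays (0.32 and 0.42).

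Markers of other cell types were read beside the array gaps. Of 12 T and NK cell markers all were tested and 3 were well above background on all arrays. Their summed signal, in units of the array's 75th percentile, was 1.82 on low 1 and 1.80 on low 2, and 0.66 and 0.60 on high 1 and high 2. It was 2.56 and 1.93 with anti-IL6R and 2.15 and 0.81 with prednisolone. This sum was level between the low-difference arrays, across which the members differed by a median of 1.94 log2 units, and it was lower on prednisolone 2 than on prednisolone 1, opposite to the members.

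Of 9 monocyte and macrophage markers 8 were tested and 7 were well above background on all arrays. Their sum was 18.7 and 13.5 in high-difference, 39.7 and 59.0 in low-difference, 75.9 and 52.5 in anti-IL6R and 98.1 and 25.0 in prednisolone grafts. Of 6 endothelial markers all were tested, with sums of 46.5 and 33.9, 57.8 and 65.5, 67.8 and 58.5, and 64.9 and 58.7 in the same order. Of 5 B and plasma cell markers 0 were tested, since none passed the filter on dim probes. Macrophage and endothelial sums were lower on high 2 and low 1 than on their replicates, like the members. Both sums were lower on the replicate 2 arrays of both treated groups, opposite to the members. Single endothelial markers were split there, with 3 of 6 higher on anti-IL6R 2 and 2 of 6 higher on prednisolone 2 than on replicate 1. Of the 8 macrophage markers, 0 were higher on replicate 2 in either treated group.

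Of 4 fibroblast and pericyte markers all were tested and well above background on all arrays. Their sum was 77.5 and 43.1 in high-difference, 67.3 and 96.0 in low-difference, 117 and 97.0 in anti-IL6R and 51.2 and 68.4 in prednisolone grafts. It ran with the members in the untreated and prednisolone pairs and opposite to them in the anti-IL6R pair. Of 4 neutrophil markers 3 were tested and 2 were well above background on all arrays, with sums of 0.43 and 0.22, 0.15 and 0.20, 0.64 and 0.34, and 2.02 and 0.15 in the same order. These sums too were lower on high 2 and low 1 than on their replicates. In both treated groups they were lower on the replicate 2 array, opposite to the members, although 1 of 3 neutrophil markers was higher on anti-IL6R 2. The part of these cell types in the members' gaps was not tested.

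Tubular injury markers, 5 of 6 tested, had sums of 804 and 1299 in high-difference and 574 and 791 in low-difference grafts. With anti-IL6R they were 493 and 635, and with prednisolone 620 and 247. High 2 had the highest injury sum of the 8 arrays, while low 1 had a lower sum than low 2. Single injury markers were split in the first pair, with 3 of 5 higher on high 1 than on high 2. In the other pair 4 of 5 were higher on low 2 than on low 1. Proximal tubule markers, 6 of 6 tested, summed to 406 and 207 in high-difference, 451 and 356 in low-difference, 369 and 411 in anti-IL6R and 319 and 364 in prednisolone grafts. Markers of the loop of Henle and the distal nephron, 6 of 6 tested, summed to 357 and 247, 738 and 499, 555 and 359, and 230.0 and 576 in the same order. Both sums were lower on high 2 than on high 1 and higher on prednisolone 2 than on prednisolone 1, as the members were, and higher on low 1 than on low 2, opposite to them. Single proximal tubule markers were split between the prednisolone arrays, with 4 of 6 higher on prednisolone 2. Their differences, prednisolone 2 minus prednisolone 1, ran from -4.75 to 2.87 log2 units. The part of these differences in the members' levels was not tested.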

How the data were processed

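Total RNA of 8 grafts, 1 µg each, was labelled with Cy3 and hybridised to 1-colour Agilent rat arrays, per the labels' protocols. Per the file headers, Agilent's Feature Extraction 9.5.1.1 quantified the scanned images. Each deposited scanner file holds a processed signal intensity per spot, corrected for background within the array by the authors' software and not scaled between arrays. The authors' deposited value table holds the same intensity multiplied by 1 constant on each array (within 0.01 log2 units) and has 1338 zeros. The sources used here do not give the basis of that constant. The table's column medians were 105.7 to 106.9. All per-sample columns were mapped to samples (0 left out).

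Control spots and outlier spots were left out, spots of a probe were averaged and the log2 signal was set relative to the array's 75th percentile. Of 41012 probes, 765 had no usable spot on some array. For a test, both arrays of some group had to be well above background, which left 28685 probes, and a gene was represented by its probe with the highest mean. Gene names were updated through a RefSeq table of GRCr8: an accession matched for 10735 probes, a symbol for 5577 and a synonym for 3729, whereas 20970 probes kept the name in the file. For 1 probe a misleading synonym (Aim1) was overridden.

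All 24462 genes were tested in 1 fit of 8 arrays with limma 3.58.1 under R 4.3.3 (eBayes with no trend after lmFit, with 4 residual and 2.37 prior degrees of freedom), with Benjamini-Hochberg adjustment over all of them and a threshold of 0.05. The script was tested on simulated data. Labels name the samples biological replicates. The members, roles and further lists were chosen with earlier results of these data known, so lists are described by counts and medians without a test. Array values are given for 22 leading members of the roles and for the 4 members with the smallest p in each comparison. Alternatives covered scaling, background correction, filters, probe choice, the deposited table, the replicate block and leaving out each array. Counts without low 1 or high 2 were added after seeing the data.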

Additional observations from a re-analysis of the deposited data

How the results depend on the processing

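No member passed the adjusted threshold in any comparison under any of 19 settings, with a smallest adjusted p of 0.17. Under the 10 alternatives that keep all arrays, the member median ran from 0.39 to 0.47 for high minus low and 0.60 to 0.83 for anti-IL6R minus high. It ran from 0.54 to 0.77 for prednisolone minus high and from -0.09 to -0.01 for anti-IL6R minus prednisolone. The replicate block, eBayes with trend and fits of the compared groups alone keep these medians the same by construction, so they are no check of them. The count of all genes called, 0 in each comparison, became 3, 7, 4 and 2 with quantile normalization in that order, and 1 and 1 in the first and second with the deposited value table. Leaving out 1 array gave counts of all genes called of 0 to 39, 0 to 169, 0 to 224 and 0 to 130. Counts above 0 came without high 1 (39, 51 and 36 in the first 3 comparisons), without prednisolone 1 (28, 169, 224 and 130) and without prednisolone 2 (28, 169, 21 and 5). The cause was not tested.

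Leaving out 1 array moved the member median to between -0.46 and 1.42 for high minus low, 0.17 and 1.29 for anti-IL6R minus high, 0.15 and 1.29 for prednisolone minus high and -0.43 and 0.38 for anti-IL6R minus prednisolone. Single members of the last comparison changed sign: Pcna ran from -0.67 to 0.079, Cdc25c from -0.98 to 0.26, Mcm5 from -0.17 to 0.98 and Ccnb1 from -0.65 to 0.067. With high 2 left out, an alternative added after seeing the data, the count of members higher without overlap in high minus low went from 8 to 33.

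Groups share replicate numbers in the labels. The labels do not state whether the numbers pair grafts across groups. Deviations of same-numbered arrays correlated between -0.35 and 0.37 over the 6 pairs of groups, which cannot decide it. With the replicate number as a block, 0 genes were called in each comparison. The medians of 0.44, 0.73, 0.72 and -0.02 could not differ from those without it, since each group held 1 array of each number. Signal over background limits Cenpe and Nusap1, and with 2 arrays per group the spread between grafts limits every difference.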

Other observations

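Further probes of the members shared the lowest array of the tested probe where they were measured on all arrays. 20 members had more than 1 probe, with 23 further probes in all, and 20 of these probes were well above background on all 8 arrays. For 20 of these 20 the lowest array was the same as for the member's tested probe. A further Bub1b probe, for example, had log2 levels of -0.24 and -1.73 in high-difference, -2.69 and -0.28 in low-difference, -0.40 and 0.52 in anti-IL6R and -0.16 and 0.36 in prednisolone grafts.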
